A study of Mus musculus with 9 samples.

Results

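The expression of 9 fatty acid synthesis genes, Fasn, Acaca, Acacb, Acly, Scd1, Elovl6, Srebf1, Me1 and Pnpla3, was examined in orthotopic Hepa1-6 tumors, which grow from a mouse hepatoma line in the liver. The members were found by their symbol in the gene table of each tumor, and 9 of 9 were present, out of 52163 gene symbols. Each of the 9 tumors came from its own mouse, and 3 mice each made up the PBS, nonresponsive and responsive groups, the last 2 of which had received an anti-PD-1 antibody. All were male C57BL/6 mice aged 6 to 8 weeks that carried pieces of a subcutaneous Hepa1-6 tumor in the left liver lobe, and they received intraperitoneal PBS or the antibody, clone RMP1-14, at 5 mg per kg for 5 times, with 4 days between injections, from day 10 to day 26. On day 27 the tumors were dissected free of surrounding tissue. Per the study's methods the 3 largest tumors of the antibody-treated mice formed the nonresponsive group and the 3 smallest the responsive group, so tumor size and group cannot be told apart. Tumors of intermediate size were not analysed here.

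Fatty acid synthesis turns citrate exported from mitochondria into saturated and monounsaturated fatty acids, and it is a well-known activity of hepatocytes and of liver tumors. Acly splits cytosolic citrate into acetyl-CoA, Acaca and Acacb carboxylate acetyl-CoA to malonyl-CoA, and Fasn joins these units into palmitate with NADPH that comes in part from Me1. Elovl6 lengthens palmitate to stearate and Scd1 places a double bond in it, while Srebf1 encodes a transcription factor that activates many of these genes. Pnpla3 encodes a lipid droplet protein whose expression follows Srebf1 activity in hepatocytes.

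Levels were given as FPKM, a fragment count scaled to the length of the transcript and the size of the library, so levels may be compared between genes. For each value Cufflinks gave a lower and an upper confidence bound, which covers the counting and assignment of fragments within that tumor and not the spread between mice. The number of fragments per tumor was not given in the tables, but the commonest ratio of low FPKM values between tumors placed their depths at 0.936 to 1.07 times the depth of PBS tumor 1. Per tumor, 12533 to 13328 entries with a gene name reached an FPKM of 1, and those without a name took 19.2% to 81.5% of the summed FPKM. Each member had 1 row in every tumor. Fasn, Acaca, Acacb, Acly, Scd1, Elovl6 and Me1 were alone in their row. Srebf1 shared its row with the microRNA gene Mir6922 that lies inside it, and in nonresponsive tumor 1 also with Mir6921. Pnpla3 shared its row with the gene model Gm49513 and with its neighbor Samm50. Samm50 encodes a part of the sorting and assembly machinery of the mitochondrial outer membrane. The value of the row of Pnpla3 could not be divided between its 3 genes and is called the Pnpla3 row.

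The GENCODE M21 annotation of the GRCm38 build places Fasn at chr11:120805846-120824547 on the minus strand, Acly at chr11:100476353-100528000 on the minus strand, Acaca at chr11:84129672-84401651 on the plus strand and Srebf1 at chr11:60199089-60222581 on the minus strand. Acacb lies at chr5:114146535-114250761 and Elovl6 at chr3:129532355-129638495, both on the plus strand. Scd1 lies at chr19:44394455-44407879 and Me1 at chr9:86581371-86695953, both on the minus strand, and Pnpla3 at chr15:84167837-84187236 next to Samm50 at chr15:84192241-84217267, both on the plus strand. The FPKM values come from transcripts assembled in each tumor, whose positions did not match this build.

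The stretch before the transcription start is printed for Fasn, whose levels separated all 3 groups, for Elovl6, whose levels separated nonresponsive from PBS tumors, and for Acly, an abundant member whose levels varied little. The sequences are the 250 bases before the RefSeq start on GRCm38.p6, written 5′ to 3′ on the strand of the gene, and capitals mark matches to CCAAT (the box bound by NF-Y) or GGGCGG (the GC box bound by Sp1) on either strand.
Fasn, chr11:120824548-120824797, - strand: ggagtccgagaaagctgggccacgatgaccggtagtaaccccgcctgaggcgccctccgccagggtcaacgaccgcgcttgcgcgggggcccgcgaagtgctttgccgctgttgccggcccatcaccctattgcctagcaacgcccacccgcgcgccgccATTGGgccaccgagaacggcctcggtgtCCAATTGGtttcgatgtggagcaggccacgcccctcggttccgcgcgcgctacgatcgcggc
Elovl6, chr3:129532136-129532385, + strand: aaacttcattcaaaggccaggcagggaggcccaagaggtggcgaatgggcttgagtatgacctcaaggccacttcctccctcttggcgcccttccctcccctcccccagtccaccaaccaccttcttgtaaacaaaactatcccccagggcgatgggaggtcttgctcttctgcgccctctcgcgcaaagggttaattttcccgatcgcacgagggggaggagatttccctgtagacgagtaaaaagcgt
Acly, chr11:100528001-100528250, - strand: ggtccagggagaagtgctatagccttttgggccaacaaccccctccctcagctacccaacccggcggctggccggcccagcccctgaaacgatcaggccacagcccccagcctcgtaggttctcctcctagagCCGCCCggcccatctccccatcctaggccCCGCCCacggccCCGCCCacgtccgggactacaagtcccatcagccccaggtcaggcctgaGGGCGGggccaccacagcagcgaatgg
The 250 bases of Fasn held 3 matches to CCAAT, which began 90, 62 and 59 bases before the start, the last of them overlapping the one before it by 2 bases. Acly held 4 matches to GGGCGG in this stretch, and Elovl6 held a match to neither motif. Windows that reach 50 bases past the start were searched for 8 of the 9 members, 11 windows in all, since Me1 has 2 and Srebf1 has 3 annotated starts. The only windows of Acaca (chr11:84195188-84195487) and Acacb (chr5:114165268-114165567) lie inside the gene bounds given above. The outermost starts of these genes were therefore not searched. CCAAT was found in 7 of these 11 windows and in 37.4% of 32851 windows of all genes, and GGGCGG in 5 of 11 and in 35.7%. The E-box CACGTG was found in 0 of the 11 windows and in 7.15% of all windows, and the sterol response element core CACCCCA in 0 of 11 and in 7.62%. A match describes these letters only, and the absence of a match says nothing on binding.

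Fasn was the member whose expression separated the groups most clearly. Its FPKM was 24.6, 24.1 and 25.8 in PBS tumors 1 to 3, 29.8, 29.4 and 28.9 in nonresponsive tumors 1 to 3, and 43.6, 36.8 and 60.8 in responsive tumors 1 to 3. The 3 groups did not overlap, with every responsive tumor above every nonresponsive tumor and every nonresponsive tumor above every PBS tumor. The lowest lower bound of Fasn in a responsive tumor was 34.9, above the highest upper bound of 31.1 in a nonresponsive tumor and of 32.9 in a PBS tumor, whereas the bounds of nonresponsive and PBS tumors overlapped. Mean Fasn FPKM was 24.8 ± 0.871 in PBS, 29.4 ± 0.485 in nonresponsive and 47.1 ± 12.3 in responsive tumors (SD, n = 3). Responsive tumor 3 accounted for much of the spread in its group.

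Differences between groups were tested on log2(FPKM + 1) with limma across all genes, and differences below are on this scale unless a ratio of FPKM is named. Fasn was higher by 0.63 in responsive than in nonresponsive tumors (SE 0.23, 95% confidence interval 0.064 to 1.20, limma adjusted p = 0.885), a ratio of mean FPKM of 1.60. Against PBS tumors it was higher by 0.87 in responsive tumors (SE 0.22, 95% confidence interval 0.33 to 1.41, limma adjusted p = 0.281), a ratio of 1.90. Nonresponsive tumors were higher than PBS tumors by 0.23 (SE 0.15, 95% confidence interval -0.13 to 0.59, limma adjusted p = 0.718), a ratio of 1.18. Its unadjusted p was under 0.05 in both comparisons of responsive tumors and above it between nonresponsive and PBS tumors, and after Benjamini-Hochberg adjustment over all genes tested it passed 0.05 in none. The exact two-sided permutation p was 0.1 in each, the smallest that 3 against 3 tumors allow.

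The call of Fasn between responsive and nonresponsive tumors at an unadjusted p under 0.05 was lost in 5 of the 6 fits that left out 1 tumor. The difference was 0.44 without responsive tumor 3 and 0.62 to 0.67 without nonresponsive tumor 1, 2 or 3 or responsive tumor 1, each with an unadjusted p above 0.05. Without responsive tumor 2 it was 0.79 (limma adjusted p = 0.764), with an unadjusted p still under 0.05. Rescaling each tumor to the summed FPKM of its named entries, which was 765576 to 814452 in responsive and 651110 to 716227 in nonresponsive tumors, gave 0.44 (limma adjusted p = 0.675, unadjusted p above 0.05) and also moved the median of all genes from -0.066 to -0.24. Relative to the median of all genes the difference of Fasn was 0.70 as deposited and 0.68 after rescaling.

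**Figure D1:**
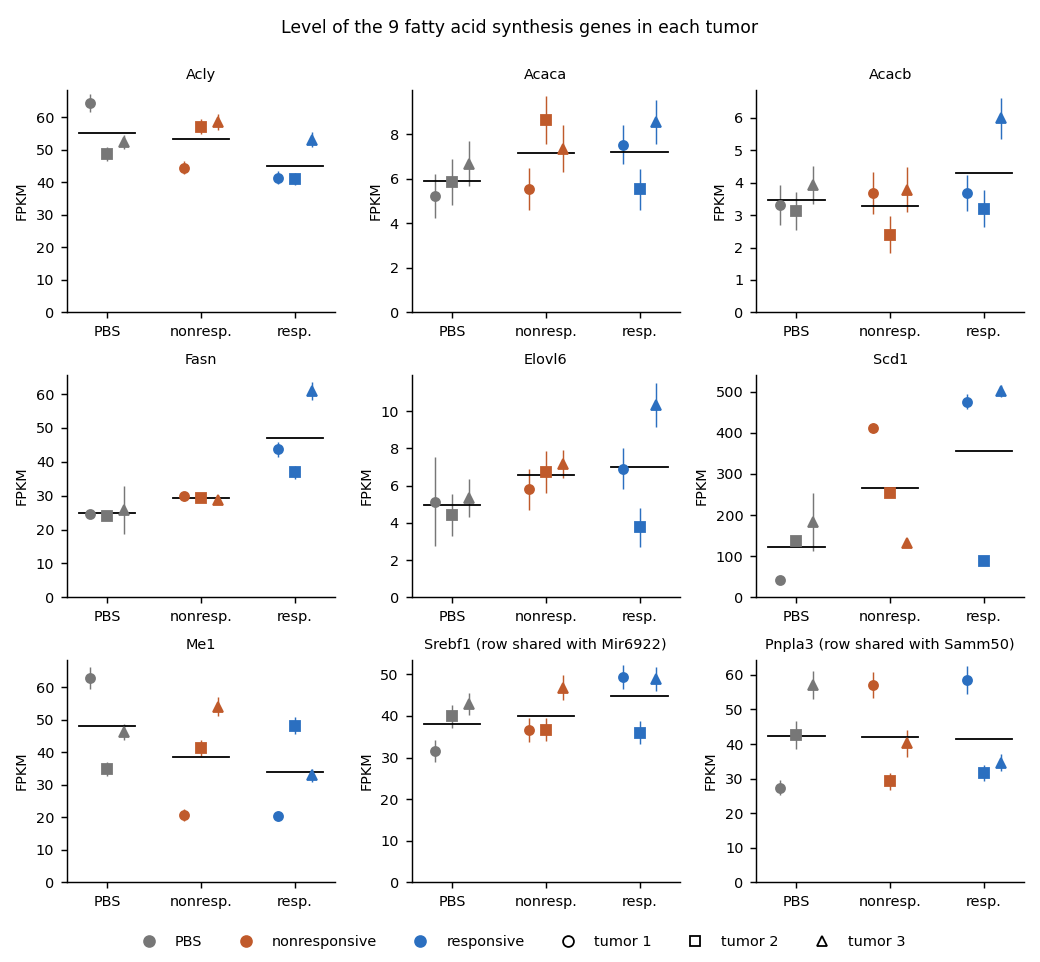
FPKM of the 9 fatty acid synthesis genes (vertical axes, linear from 0) in each tumor of the PBS, nonresponsive and responsive groups, with symbols for tumors 1 to 3, vertical lines for the confidence bounds of Cufflinks and black bars for group means. Fasn is the only gene whose 3 groups stand apart in full, from 24.1 to 25.8 in PBS, 28.9 to 29.8 for nonresponsive and 36.8 to 60.8 for responsive tumors.

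The enzymes upstream of Fasn did not separate the groups as it did. Acly FPKM was 64.4, 48.6 and 52.4 for PBS, 44.5, 57.1 and 58.6 for nonresponsive, then 41.4, 40.9 and 53.0 for responsive tumors. All 3 groups of Acly overlapped, and the responsive mean was the lowest, by 0.24 against nonresponsive tumors (95% confidence interval of the difference -0.76 to 0.28, limma adjusted p = 0.973). The ratio of Fasn FPKM to Acly FPKM was 0.382 to 0.496 in PBS, 0.493 to 0.670 for nonresponsive and 0.900 to 1.15 for responsive tumors. This ratio, which no scaling of a tumor can alter, was chosen after the values were seen and was given no test.

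Acaca, the acetyl-CoA carboxylase of the cytosol that supplies Fasn, had an FPKM of 5.21, 5.86 and 6.68 for PBS, 5.53, 8.64 and 7.34 for nonresponsive, then 7.53, 5.52 and 8.54 for responsive tumors. Its means of 5.91, 7.17 and 7.20 stood in the same order as those of Fasn, but all 3 groups overlapped. Its responsive and nonresponsive means differed by 0.0057 (95% confidence interval -0.61 to 0.62, limma adjusted p = 0.999). Acacb, the carboxylase at the mitochondrial surface whose malonyl-CoA restrains fatty acid import for oxidation, was lower in level, at 3.30, 3.13 and 3.93 for PBS, 3.69, 2.40 and 3.78 for nonresponsive, then 3.68, 3.20 and 5.99 for responsive tumors. Responsive tumor 3 held the highest Acacb value, with PBS tumor 3 next at 3.93, and the difference of 0.28 between responsive and nonresponsive tumors had a 95% confidence interval of -0.41 to 0.98 (limma adjusted p = 0.973). The log2 ratio of Acacb to Acaca lay between -1.50 and -0.45 over the 9 tumors, with Acaca above Acacb in each, and did not separate the groups (exact permutation p = 0.6 for responsive against nonresponsive, adjusted over 9 ratio tests 0.771).

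Me1, the cytosolic malic enzyme, varied by tumor more than by group. Its FPKM was 62.7, 34.8 and 46.2 for PBS, 20.6, 41.3 and 54.0 for nonresponsive, then 20.5, 48.2 and 32.9 for responsive tumors, so nonresponsive tumor 1 and responsive tumor 1 lay below all others. Differences between groups of -0.16 (responsive minus nonresponsive), -0.53 (responsive minus PBS) and -0.37 (nonresponsive minus PBS) had adjusted limma p-values of 0.985, 0.435 and 0.731. The same 2 tumors had the lowest summed FPKM of 11 proliferation genes, 145 and 155 against 345 to 993 in the other 7, and the lowest Cdk1, the main mitotic kinase, at 23.1 and 15.4 against 57.4 to 208. Low Me1 and low proliferation genes thus stood in the same tumors, and the part of cell composition in this was not tested. In bulk tumors fewer cells of a type and less RNA per cell cannot be told apart.

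Scd1 was the most abundant and the most variable member. Its FPKM was 43.3, 137 and 183 for PBS, 412, 254 and 132 for nonresponsive, then 476, 89.3 and 502 for responsive tumors, an 11.6-fold range. Both the highest and the second lowest value were in the responsive group, and all 3 groups overlapped. The SD within groups was 1.13 on the log2 scale, above that of 87.7% of 14474 expressed genes, whose median was 0.41. The difference of 1.42 between responsive and PBS tumors was the largest of any member in size but had an SE of 0.88 (95% confidence interval -0.75 to 3.59, limma adjusted p = 0.387), and that between nonresponsive and PBS tumors was 1.21 (95% confidence interval -0.45 to 2.88, limma adjusted p = 0.718). Leaving out 1 tumor moved the first of these to 0.80 without PBS tumor 1, 0.99 without responsive tumor 3 and 2.23 without responsive tumor 2, the last with an unadjusted p under 0.05. Responsive and nonresponsive tumors differed by 0.21 (95% confidence interval -1.75 to 2.17, limma adjusted p = 0.991).

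Scd1 was compared within each tumor with Scd2, the isoform widely expressed outside adult liver, and with Fasn. Scd2 FPKM was 127, 71.0 and 93.4 for PBS, 27.8, 87.1 and 114 for nonresponsive, then 25.4, 83.9 and 41.0 for responsive tumors. Its row also named Scd3 in responsive tumors 1 and 2 and Scd4 in PBS tumor 2, and these genes are near relatives whose reads can be shared. The log2 ratio of Scd1 to Scd2 ran from -1.53 in PBS tumor 1 to 4.17 in responsive tumor 1, which means that Scd2 exceeded Scd1 in the former only. It was 3.85, 1.53 and 0.21 for nonresponsive and 4.17, 0.088 and 3.58 for responsive tumors, and the groups overlapped (exact permutation p = 0.8, adjusted 0.9). The log2 ratio of Scd1 to Fasn was 3.74, 3.07 and 2.16 for nonresponsive and 3.42, 1.25 and 3.02 for responsive tumors (exact permutation p = 0.6, adjusted 0.771).

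Elovl6 was low in level, with an FPKM of 5.14, 4.42 and 5.35 for PBS, 5.81, 6.73 and 7.15 for nonresponsive, then 6.91, 3.76 and 10.3 for responsive tumors. Every nonresponsive tumor was above every PBS tumor, while the responsive group held both the lowest and the highest of the 9 values. The difference between nonresponsive and PBS tumors was 0.34 (SE 0.18, 95% confidence interval -0.094 to 0.78, limma adjusted p = 0.718), and the confidence bounds of the tumors overlapped.

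Srebf1 was evenly expressed, at 31.6, 39.9 and 42.9 for PBS, 36.7, 36.6 and 46.8 for nonresponsive, then 49.5, 36.0 and 48.9 for responsive tumors. Responsive tumors 1 and 3 were above all other tumors and responsive tumor 2 was below all but 1. Responsive minus nonresponsive tumors gave 0.15 (95% confidence interval -0.39 to 0.69, limma adjusted p = 0.974), and it was -0.045 after rescaling to named entries. The Pnpla3 row was at 27.4, 42.6 and 57.0 for PBS, 57.1, 29.2 and 40.2 for nonresponsive, then 58.4, 31.6 and 34.5 for responsive tumors. The 3 groups of this row spanned nearly the same range, and the responsive and nonresponsive means differed by -0.022 (95% confidence interval -0.89 to 0.84, limma adjusted p = 0.999).

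Counted over the 9 members, 1 had a limma p under 0.05 in responsive against nonresponsive tumors, beside 5.49% of 13845 genes tested, and 0 had an adjusted p under 0.05, beside 0.116%. In responsive against PBS tumors 1 of 9 had a p under 0.05, beside 17.2% of 13852 genes, and 0 an adjusted p under 0.05, beside 0.231%. In nonresponsive against PBS tumors 0 of 9 had a p under 0.05, beside 3.22% of 13806 genes, and 0 an adjusted p under 0.05, beside 0.0797%. The groups did not overlap for 1, 1 and 2 members in these comparisons, beside 10.5%, 28% and 8.2% of all genes. Fasn was that member in each comparison, joined by Elovl6 in nonresponsive against PBS tumors. The median difference of the members was 0.0057, 0.22 and 0.071, against -0.066, -0.11 and -0.057 for all genes tested. Counts of 0 to 2 among 9 do not set the members apart from all genes. The comparisons share tumors, since each group enters 2 of them.

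**Figure D2:**
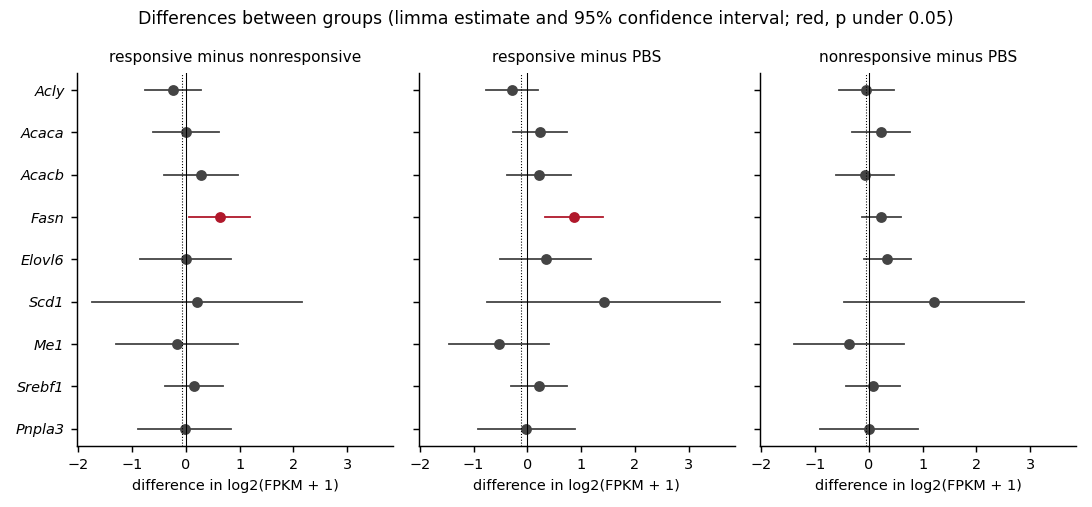
Difference in log2(FPKM + 1) of each member in the 3 comparisons (points, limma estimates; horizontal lines, 95% confidence intervals; solid line, 0; dotted line, median of all genes tested), with p under 0.05 in red. The interval leaves out 0 for Fasn in the 2 comparisons of responsive tumors, at 0.63 and 0.87, and Scd1 has the widest interval in each comparison.

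Scd1 had the highest mean log2 level in every group, without overlap with the next member in nonresponsive and responsive tumors. Acaca, Elovl6 and Acacb were the lowest 3 in every group, and each Fasn value was above each Acaca value. Acly, Me1, Srebf1 and the Pnpla3 row overlapped as neighbors in every group. The rank of Fasn was 6 of 9 in PBS and nonresponsive tumors and 2 in responsive tumors, where it overlapped with Acly, its neighbor in the order. The rank of Me1 was 3 in PBS, 5 in nonresponsive and 6 in responsive tumors. Among entries with an FPKM of at least 1 in the same tumor, Scd1 stood above 81.7% to 97.7% of entries, Fasn above 69.2% to 86.6% and Acacb above 12.3% to 31.1%.

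Single tumors stood out over several members. Responsive tumor 3 had the highest value of 4 members, Fasn, Acacb, Scd1 and Elovl6, and responsive tumor 2 was among the lowest 3 tumors for 7 of 9. PBS tumor 1 had the lowest value of 4 members and the highest of 2, Acly and Me1. Without responsive tumor 2, Fasn, Elovl6 and Scd1 had a limma p under 0.05 in responsive against PBS tumors. With all tumors of these groups kept only Fasn did, beside 17.2% of all genes. The share of all genes moved with the tumor left out, to 1239 of 13584 without PBS tumor 1. The 17.2% is therefore no background for the fit without responsive tumor 2. Fasn, Acly, Srebf1, Acaca and Acacb varied within groups by 0.21 to 0.29 on the log2 scale, less than the median gene at 0.41, and Elovl6, the Pnpla3 row and Me1 by 0.38, 0.49 and 0.58.

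Hepatocyte genes moved with the groups. Albumin, made by hepatocytes, had an FPKM of 173, 835 and 1259 for PBS, 2678, 1490.0 and 885 for nonresponsive, then 5041, 2576 and 4396 for responsive tumors. The summed FPKM of 25 hepatocyte genes was 727 to 7694 in PBS, 5184 to 18306 for nonresponsive and 16565 to 28152 for responsive tumors. Of these 25 genes, 14 had a p under 0.05 with the higher mean in responsive rather than nonresponsive tumors, beside 4.05% of all genes, and 22 did so with the higher mean in responsive rather than PBS tumors, beside 8.47%. The mean log2 level of this list was taken as a covariate in a fit of all 9 tumors. With it, Fasn differed by 0.60 between responsive and nonresponsive tumors (limma adjusted p = 0.491). Between responsive and PBS tumors Fasn differed by 0.80 (limma adjusted p = 0.977). Its unadjusted p was under 0.05 in both, as was that of 1376 and 705 of 14474 genes. The covariate was 7.83 to 8.79 in responsive, 6.07 to 7.78 in nonresponsive and 3.62 to 6.66 in PBS tumors. Since responsive tumors did not overlap the others in it, this fit cannot tell group and hepatocyte level apart. Nonresponsive tumor 1, whose hepatocyte sum of 18306 was above that of responsive tumor 2 at 16565, had a Fasn FPKM of 29.8 against 36.8. By the mean log2 level of the list, the measure used as the covariate, the order of this pair was the other way, at 7.78 against 7.83. Scd1 ran opposite to Fasn in this pair, at 412 against 89.3. The part of hepatocyte content in either gene was not tested on this pair. With the covariate the Scd1 differences turned from 0.21 to -0.95 and from 1.42 to -0.82, with adjusted limma p-values of 0.685 and 1, so the sign of the Scd1 differences depended on this term.

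Other cell types were measured by lists of their genes. The adipocyte list summed to 50.6 to 95.2 in PBS, 92.1 to 212 for nonresponsive and 216 to 403 for responsive tumors, of which Car3, an enzyme also abundant in liver and muscle, took 154 to 318 in responsive tumors. The defining adipocyte genes Adipoq, Plin1 and Lep were at or below 0.548 in all tumors but nonresponsive tumors 2 and 3, where Adipoq reached 6.54 and 1.01. Other genes of the list were not confined to these tumors, with Retn, which encodes resistin, at 39.3 in nonresponsive tumor 1 and 1.36 in responsive tumor 1, Cfd, the adipsin gene, at 3.13 in PBS tumor 1 and 42.0 in nonresponsive tumor 2, and Fabp4, which macrophages and endothelial cells also express, at 32.9 to 73.9 in 8 of the 9 tumors and lower in PBS tumor 1. Fasn was at 29.4 and 28.9 in nonresponsive tumors 2 and 3 and at 29.8 in nonresponsive tumor 1. The macrophage list summed to 1336 to 3673 in PBS, 2990 to 7968 for nonresponsive and 2779 to 8763 for responsive tumors, and the 3 tumors with the highest sums, responsive tumor 1, nonresponsive tumor 2 and nonresponsive tumor 1, had Fasn at 43.6, 29.4 and 29.8. T cell genes summed to 75.6 to 225, 134 to 162 and 181 to 248, with 4 of 11 higher in responsive than in nonresponsive tumors at a p under 0.05, beside 4.05% of all genes. The proliferation list summed to 414 to 811 in PBS, 145 to 993 for nonresponsive and 155 to 623 for responsive tumors, and the list of fetal liver and tumor genes to 155 to 223, 57.4 to 238 and 52.9 to 302. Skeletal muscle genes summed to 5.64 to 75.9 in responsive and 8.91 to 128 in PBS tumors and reached 425 in nonresponsive tumor 3. Nearly all of the 75.9, in responsive tumor 2, came from a single gene, Tnnt3 at 74.8, while 6 genes of the list were at 0 there. The part of cell types in the levels of the members was not tested beyond the hepatocyte covariate, which cannot be told apart from group.

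**Figure D3:**
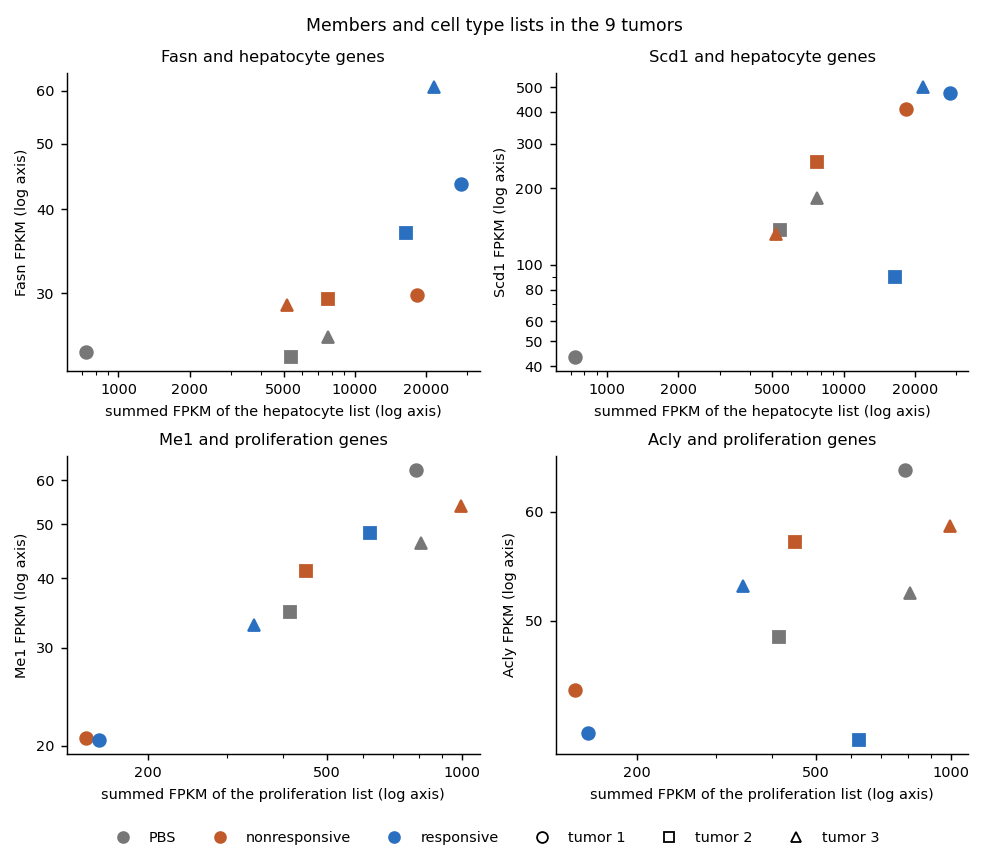
FPKM of Fasn and Scd1 against the summed FPKM of 25 hepatocyte genes and of Me1 and Acly against that of 11 proliferation genes, 1 point per tumor, all axes logarithmic. Nonresponsive tumor 1 and responsive tumor 2 have hepatocyte sums of 18306 and 16565, and mean log2 levels of this list in the other order, 7.78 and 7.83. Their Fasn is at 29.8 and 36.8 and their Scd1 at 412 and 89.3. The 2 tumors with the lowest proliferation sums have the lowest Me1.

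Neighboring steps were read from lists of other pathway genes. Of 10 tested genes for the supply of acetyl-CoA and NADPH, 0 were higher and 1, G6pdx, was lower in responsive than in nonresponsive tumors at a limma p under 0.05, beside 4.05% higher and 1.44% lower of all genes. G6pdx, which encodes the first NADPH-forming enzyme of the pentose phosphate pathway, had an FPKM of 38.7, 36.5 and 30.1 for nonresponsive and 20.1, 22.2 and 24.7 for responsive tumors, without overlap (difference -0.63, limma adjusted p = 0.885). Against PBS tumors, where 8.47% of all genes were higher and 8.75% lower in responsive tumors, 3 of 10 were higher, the citrate carrier Slc25a1 (0.79), the NADP-dependent isocitrate dehydrogenase Idh1 (1.16) and the malonyl-CoA decarboxylase Mlycd (1.18). The most abundant genes of the list were Pgd, the third enzyme of the pentose phosphate pathway, Idh1 and Pdha1, a pyruvate dehydrogenase subunit, and Pgd and Pdha1 differed by 0.076 and -0.27 between responsive and PBS tumors with adjusted limma p-values of 0.815 and 0.459.

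Of 14 tested genes of elongation and desaturation, 0 were higher and 1, Fads3, was lower in responsive than in nonresponsive tumors at a p under 0.05, beside 4.05% higher and 1.44% lower of all genes. Against PBS tumors 5 were higher at a p under 0.05, beside 8.47% of all genes, namely Elovl2, Elovl3, Elovl5, Fads1 and Fads2, which act on very long or polyunsaturated chains. Fads2, the delta-6 desaturase, had an FPKM of 17.0, 20.1 and 32.2 in PBS and 60.1, 35.5 and 68.2 in responsive tumors (difference 1.21, limma adjusted p = 0.281), without overlap. Tecr and Hsd17b12, which serve the elongation cycle together with Elovl6, had differences of 0.29 and 0.059 in the same comparison, with adjusted limma p-values of 0.329 and 0.863. Scd2 differed by -1.07 (limma adjusted p = 0.301).

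Of 17 regulators of lipogenesis, 3 were higher and 0 lower at a p under 0.05 when responsive tumors were set against nonresponsive tumors, beside 4.05% and 1.44% of all genes. These were Mlxipl, the carbohydrate-responsive factor ChREBP, Insig2, which holds SREBP precursors in the endoplasmic reticulum, and Prkaa2, a catalytic subunit of AMP-activated protein kinase. The other catalytic subunit, Prkaa1, was more abundant, at a mean FPKM of 10.7 over the 9 tumors against 1.76 for Prkaa2. It went the other way (difference -0.38, limma adjusted p = 0.900). Mlxipl FPKM was 1.84, 4.74 and 3.72 for PBS, 7.15, 2.88 and 3.54 for nonresponsive, then 13.9, 8.29 and 8.32 for responsive tumors, with the responsive tumors above all others (difference 1.06 against nonresponsive, limma adjusted p = 0.885, and 1.36 against PBS, limma adjusted p = 0.281). Against PBS tumors 4 of 17 were higher and 2 lower at a p under 0.05, beside 8.47% and 8.75% of all genes. The 2 lower were Prkaa1 (-0.46) and the row of Mbtps2 and Yy2 (-0.87). Insig1, a target of SREBP factors that holds back their activation, was among the 4, with an FPKM of 9.20, 18.6 and 22.8 in PBS and 59.4, 25.6 and 60.2 in responsive tumors (difference 1.46, limma adjusted p = 0.281). Nr1h3, the liver X receptor alpha, was also among them, but it was listed at 0 in 2 PBS tumors and 1 nonresponsive tumor, and its row also held a gene model. The abundant regulators Usf1, Nr1h2 and Usf2 had differences of 0.27, -0.12 and 0.17 with adjusted limma p-values of 0.401, 0.714 and 0.581. In nonresponsive against PBS tumors only Pparg, a nuclear receptor of fat storage, had a p under 0.05 and was higher (difference 1.07, limma adjusted p = 0.718), beside 1.51% of all genes higher and 1.71% lower.

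Of 18 tested genes of triglyceride synthesis and lipid droplets, 1 was higher at a p under 0.05 in responsive than in nonresponsive tumors, beside 4.05% of all genes, and 5 in responsive than in PBS tumors, beside 8.47%, while 0 were lower at a p under 0.05 in either. Plin5, a droplet protein of oxidative tissues, was higher in both, with an FPKM of 0.117, 1.42 and 1.01 for PBS, 4.25, 1.03 and 1.08 for nonresponsive, then 8.38, 4.33 and 4.25 for responsive tumors, where nonresponsive tumor 1 and responsive tumor 3 were alike. The other 4 were Gpam, Agpat2, Lpin2 and Acsl1, at 0.51 to 1.78. Plin2, the most abundant droplet gene of the list, was at 465, 315 and 399 in PBS and 325, 414 and 267 in responsive tumors (difference -0.23, limma adjusted p = 0.617). By limma, 0 genes of these 4 pathway lists passed 0.05 after adjustment. Genes that were not among the 3 most abundant of a list were chosen after their values were seen.

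**Figure D4:**
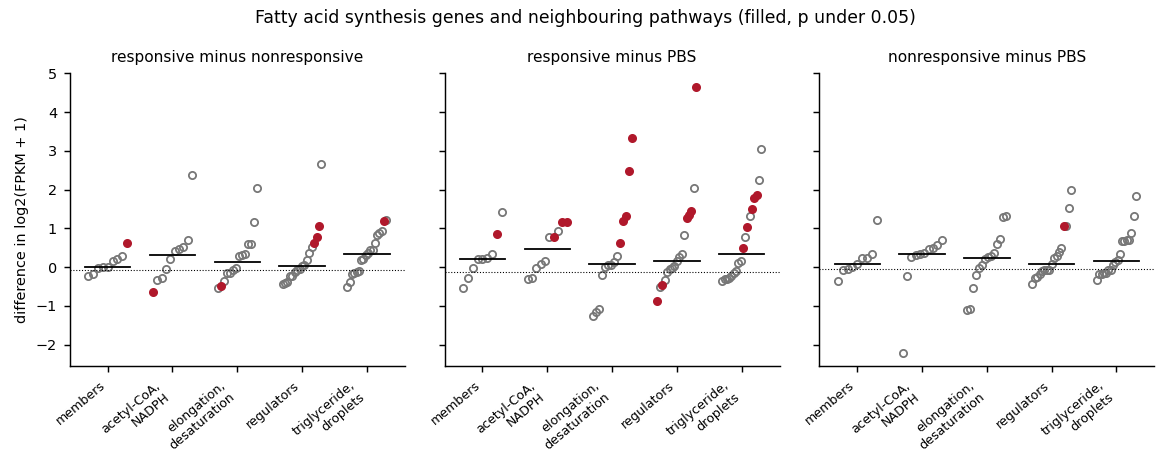
Difference in log2(FPKM + 1) of the 9 members and of the 4 neighboring pathway lists in the 3 comparisons (1 circle per tested gene, sorted within a list; filled red, limma p under 0.05; black bars, list medians; dotted line, median of all genes). Filled circles are most frequent in responsive minus PBS tumors, where 17.2% of all genes had a p under 0.05.

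The gene with the profile most like each member over the 9 tumors was sought among 6266 expressed genes, by the root mean square difference of log2 values centered on their mean. For Me1 it was Yaf2, at a difference of 0.096 against an SD of 0.56 for Me1 itself. Steap4 was nearest to Scd1, at 0.33 against an SD of 1.18, and Proser2 to Fasn, at 0.21 against 0.43. Gfra2 was nearest to Elovl6, at 0.28 against 0.37, and Rsph1 to the Pnpla3 row, at 0.31 against 0.42. For Acly, Acaca, Acacb and Srebf1 the nearest genes were Acvr2b, Gm34934, U6 and Gm15343, at 0.31 to 0.34. The genes compared had an SD of at least 0.5, well above the 0.22 to 0.28 of these 4 members, so the distances were set in large part by that minimum and say nothing on how alike the profiles are.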

How the data were processed

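RNA of the 9 tumors was sequenced in bulk. The files that the authors deposited for single tumors hold gene FPKM values from Cufflinks and their confidence bounds, made from transcripts assembled in that tumor with an annotation as guide. Bowtie2 2.2.4 and TopHat2 2.1.1 are named in the submitters' processing notes, as is the mm8 build. Positions in the tables did not match GRCm38, and none were used. The coordinates printed come from GENCODE M21 (GRCm38) and the RefSeq promoter windows (GRCm38.p6). The authors' table of Cuffdiff comparisons between groups, with fold changes and p-values, was not used. Read counts are not in these tables, so no count model was run.

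Rows were joined by symbol, and FPKM was summed over the rows that name a gene. Genes with identical rows in all tumors made 1 feature, which gave 50406 features, and 13 symbols with a failed estimate were left out. FPKM was transformed to log2(FPKM + 1), and each pair of groups was fitted by limma (version 3.58.1, R 4.3.3; lmFit, eBayes with trend) on its 6 tumors alone. A feature was tested if 3 or more of the 6 tumors reached an FPKM of 1, with Benjamini-Hochberg adjustment over all tested. Exact permutation tests were two-sided. Python 3.11.15, pandas 2.3.3, numpy 2.4.6, scipy 1.17.1 and matplotlib 3.10.9 were used for the rest. The limma steps were tested on simulated data for responsive against nonresponsive tumors with 13845 genes in 20 data sets, where 69.5% of genes changed by 1 and 90.2% of genes changed by 2 on the log2 scale had a p under 0.05, as did 5.295% of unchanged genes.

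The members, lists, motifs and tests were chosen with earlier results of these data known. Named genes were the members, the 3 most abundant genes of each pathway list and the gene most like each member, and others were chosen after their values were seen. The replicate numbers were not taken as pairs in the main fits. Deviations of same-numbered tumors correlated between -0.394 and 0.475, and 2 of 9 pairs were above 0.1. Tumors of different number correlated between -0.467 and 0.461, and 9 of 18 pairs were above 0.1. These correlations cannot show that no pairing existed. No 2 tumors were duplicates. Alternatives were a pseudocount of 0.1, no filter, an FPKM minimum of 5, scaling to the upper quartile, rescaling to named entries, all 9 tumors in 1 fit, a replicate block, an ordinary Student test, a hepatocyte covariate, joined loci and leaving out each tumor.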

Additional observations from a re-analysis of the deposited data

How the results depend on the processing

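Under every alternative run, 0 members had an adjusted p under 0.05 by limma. Fasn kept its direction in all 3 comparisons under each alternative, at 0.44 to 0.79 in responsive minus nonresponsive, 0.67 to 1.02 in responsive minus PBS and 0.20 to 0.28 in nonresponsive minus PBS tumors. Of 492 member differences and ratios recomputed, 440 kept their direction, the differences among them also staying on the same side of an adjusted p of 0.05, and 52 reversed, all with p-values of at least 0.168. Calls at an unadjusted p under 0.05 did move, as follows. The number of members with a p under 0.05 in responsive minus nonresponsive tumors moved from 1 to 0 after rescaling to named entries and with the replicate block, and it was 0 to 1 with 1 tumor left out. Of all genes, 867 of 13863 had such a p after rescaling and 937 of 13845 with the block. With 1 tumor left out these ran from 310 of 13459 to 1426 of 13522. In responsive minus PBS tumors the number of members was 2 with the hepatocyte covariate, which added the Pnpla3 row at -0.97, beside 705 of 14474 genes. It was 1 to 3 with 1 tumor left out, when Scd1 ranged from 0.80 to 2.23. The share of all genes moved as well, from 2385 of 13852 in the main fit to 1239 of 13584 without PBS tumor 1. The share of the main fit is therefore no background for these counts. In nonresponsive minus PBS tumors Fasn and Elovl6 had such a p with an ordinary Student test per gene, and no member did in the main fit. The 3.22% of all genes called in the main fit came from limma and is no background for the Student test. The cause of these moves was not tested. The replicate block left the difference of Fasn in responsive minus nonresponsive tumors at 0.63 (limma adjusted p = 0.752) with an unadjusted p above 0.05, and it changed no other call.

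Reversed values in responsive minus nonresponsive tumors were 0.022 for Elovl6 and 0.00301 for the Pnpla3 row with upper-quartile scaling, -0.17 for Acaca and -0.045 for Srebf1 after rescaling, and -0.049 for Acaca, -0.95 for Scd1 and 0.39 for Me1 with the hepatocyte covariate. In responsive minus PBS tumors the Pnpla3 row was 0.021 with upper-quartile scaling, and Acly, Scd1, Me1 and Srebf1 were 0.082, -0.82, 0.53 and -0.023 with the covariate. In nonresponsive minus PBS tumors Acly was 0.00215 after rescaling, and Acly, Me1, Srebf1 and the Pnpla3 row were 0.13, 0.15, -0.048 and -0.45 with the covariate. With 1 tumor left out, differences in responsive minus nonresponsive tumors ranged from -0.15 to 0.16 for Acaca, -0.30 to 0.33 for Elovl6, -0.55 to 0.15 for Me1, -0.29 to 0.22 for the Pnpla3 row and -0.22 to 1.02 for Scd1. In responsive minus PBS tumors they ranged from -0.00174 to 0.37 for Acacb and -0.30 to 0.22 for the Pnpla3 row. In nonresponsive minus PBS tumors they ranged from -0.15 to 0.092 for Acacb, -0.13 to 0.077 for Acly, -0.65 to 0.019 for Me1, -0.27 to 0.24 for the Pnpla3 row and -0.055 to 0.16 for Srebf1. The log2 ratio of Acacb to Acaca ranged from -0.00917 to 0.50 in responsive minus nonresponsive and -0.12 to 0.091 in responsive minus PBS tumors. Scd1 to Scd2 ranged from -0.075 to 2.02 in responsive minus nonresponsive tumors, and Scd1 to Fasn from -0.85 to 0.23 and, against PBS, from -0.056 to 1.21. Acacb was not tested with a filter at an FPKM of 5.

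With 3 tumors per group the confidence intervals set what could be seen, from -0.13 to 0.59 for Fasn and -0.45 to 2.88 for Scd1 in nonresponsive minus PBS tumors. The depth of each tumor was only estimated, relative to PBS tumor 1, so counting limits could not be given.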
